A study of Mus musculus with 2 samples.

Results

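The 40 genes described here are the machinery of cell division as it is read in lung phagocytes: 11 mitotic cyclins, kinases and parts of the anaphase-promoting complex, 9 chromosome, kinetochore and spindle genes, 3 tubulin and stathmin genes, 4 G1 and G1/S cyclins, 3 genes of nucleotide supply and 10 genes of the replication fork, of origin licensing and of replicating chromatin. They were taken by symbol from the 31053 genes of the count matrices, and each of the 40 was found and was among the 15387 genes with UMIs (unique molecular identifiers, counted mRNA molecules) in at least 5 cells. They were followed in 5 cell classes: mature DCs, cDC1, cDC2, C1q-high macrophages and alveolar macrophages.

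A dividing cell passes through a fixed order of gene programs. D-type cyclins act in G1, E-type cyclins and the genes for nucleotides and the replication fork are induced at entry into S phase, and the cyclins, kinases and motors of mitosis follow in G2 and M phase. Alveolar macrophages are known to renew themselves in the lung by local division, conventional DCs arise from dividing precursors and can divide in tissue, and DCs that mature and upregulate Ccr7 are known to have left the cell cycle.

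The cells came from lungs of female C57BL/6J mice of 3 treatments, each 1 pool of mice. Mice of the asthma pool were sensitised with the egg protein ovalbumin (OVA) in the aluminium adjuvant Alum and then given OVA intranasally, mice of the tolerance pool inhaled OVA before that same protocol, and control mice received Alum without OVA and saline intranasally. Macrophages were sorted together with DCs, DCs being taken as MHC-II high CD11c high cells of a gate negative for MerTK, CD64 and Ly6C, and each treatment was marked by its own hashtag antibody. All were mixed and loaded on 2 lanes, which are technical replicates, so nothing between treatments could be tested. The p-values between classes measure how far class differences vary over 3 pools that also differ in treatment.

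The 10901 barcodes fell into 6 libraries (pool by lane) of 1458 to 2182 barcodes and 7897139 to 11459855 UMIs, with 0 barcodes shared between libraries. Between 98.5% and 99.2% of hashtag UMIs were those of a library's own treatment. After filtering, 9863 cells remained, of which 310 were mature DCs, 389 cDC1, 1057 cDC2, 1572 C1q-high macrophages and 4987 alveolar macrophages. These names stand for classes rebuilt here from marker genes (DC-like and macrophage-like cells), and 436 genes, the members, the other listed division genes and genes correlated with them, were kept out of the clustering. Median UMIs per cell were 5482.5 in mature DCs, 7118 in cDC1, 6862 in cDC2, 6324.5 in C1q-high and 4964 in alveolar macrophages.

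Summed per list, the class markers were highest where their names place them, though not each single marker was. In the asthma, tolerance and control pools the 8 mature DC markers summed to 11959, 10862 and 15488 CPM (UMIs of a gene per 1000000 UMIs of the class) in mature DCs, the 9 cDC1 markers to 4713, 5056 and 4686 CPM in cDC1 and the 8 cDC2 markers to 3970, 3645 and 4826 CPM in cDC2. The 8 markers of C1q-high macrophages summed to 7255, 9815 and 12878 CPM in that class and to 194, 194 and 146 CPM in alveolar macrophages. The cDC2 markers were the least exclusive, with sums of 1693, 1268 and 1115 CPM in C1q-high macrophages. Among them Clec4b1 had 111 CPM in C1q-high and 88.6 CPM in cDC2, with the pools added. Tnip3 had 570 CPM in mature DCs and 541 CPM in cDC2, and Clec4a4 only 0.900 CPM in cDC2. C1q-high macrophages held 774 cells of a cluster led by Retnla, Ccl24 and Arg1 with C1qa at 975 CPM, and 798 cells of a cluster led by Ccl8, C1qc and C1qa with C1qa at 3424 CPM. The first of these had none of the markers among its 10 leading genes, nor did an alveolar macrophage cluster of 336 cells led by interferon-induced genes such as Ifit1. The 10 alveolar macrophage markers summed to 49824, 57459 and 18015 CPM in that class, and Chil3 alone had 30077 CPM with the pools added. The lower control sum was not shared by every marker. Ear1 had 528, 927, 550, 176 and 185 CPM in the clusters led by Fabp1, Apoc1, Il18, Fbp1 and Ifit1bl1. Control gave 1122, 843, 414, 16 and 0 of their cells.

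Promoters of the members share letters that the member list did not use, and 5 are shown because they represent the mitotic and the replication genes whose levels are followed below. RefSeq promoters (build GRCm38.p6, 250 bases before to 50 after the start) matched 34 of the 40 symbols, and 6 were not matched (Ccna2, Aurkb, Stmn1, Ccnd1, Ccnd2 and Ccne2). Searched on both strands, the cell cycle homology region CHR (TTTGAA) was found in 14 of 34 (41.2%), against 17.9% of 32851 promoters of the same length, and the CCAAT box in 29 of 34 (85.3%), against 37.4%. E2F-like sites (TTTGGCGC, TTTCCCGC, TTTGCCGC or TTTCGCGC) stood in 7 of 34 (20.6%), against 2.26%. CHR letters lay in 6 of 9 matched mitotic and 6 of 9 matched chromosome and spindle genes but in 2 of 10 replication genes, and E2F-like letters in 6 of 10 replication genes, in Cdk1 and in none of the chromosome and spindle genes. Each of the 14 promoters with CHR letters also held CCAAT letters. A match of letters is a description and shows no bound factor.

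Capitals mark the letters of these motifs on either strand, written 5′ to 3′ along the gene's own strand. Plk1, a mitotic kinase (chr7:122159185-122159484, plus strand), Top2a, the topoisomerase that disentangles sister chromosomes (chr11:99024140-99024439, minus strand), and Cdk1, the kinase that drives entry into mitosis (chr10:69352863-69353162, minus strand), hold CHR and CCAAT letters, and Cdk1 alone among the members holds an E2F-like site as well. Mcm5 (chr8:75109259-75109558, plus strand) and Mcm6 (chr1:128359656-128359955, minus strand), subunits of the replicative helicase, hold E2F-like and CCAAT letters and no CHR. In both, E2F-like letters of the opposite strand overlap a forward site, and letters of different motifs overlapped once among the member promoters.
Plk1: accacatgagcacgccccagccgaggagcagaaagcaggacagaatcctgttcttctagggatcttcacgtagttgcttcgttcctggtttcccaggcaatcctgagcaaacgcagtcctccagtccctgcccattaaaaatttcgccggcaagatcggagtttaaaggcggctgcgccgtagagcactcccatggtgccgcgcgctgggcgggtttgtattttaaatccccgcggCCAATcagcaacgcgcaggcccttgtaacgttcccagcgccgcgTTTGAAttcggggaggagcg
Top2a: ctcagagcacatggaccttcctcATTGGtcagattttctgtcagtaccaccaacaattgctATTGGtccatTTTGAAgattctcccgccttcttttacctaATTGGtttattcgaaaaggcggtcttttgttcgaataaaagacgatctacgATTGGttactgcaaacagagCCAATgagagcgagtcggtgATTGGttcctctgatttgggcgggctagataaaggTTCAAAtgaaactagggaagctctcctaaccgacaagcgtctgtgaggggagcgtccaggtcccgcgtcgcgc
Cdk1: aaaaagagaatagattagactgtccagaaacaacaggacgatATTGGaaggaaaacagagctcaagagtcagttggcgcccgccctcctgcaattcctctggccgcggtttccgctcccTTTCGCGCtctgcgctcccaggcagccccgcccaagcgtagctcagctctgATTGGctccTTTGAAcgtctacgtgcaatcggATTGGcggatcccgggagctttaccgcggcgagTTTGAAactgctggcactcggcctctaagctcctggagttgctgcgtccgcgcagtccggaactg
Mcm5: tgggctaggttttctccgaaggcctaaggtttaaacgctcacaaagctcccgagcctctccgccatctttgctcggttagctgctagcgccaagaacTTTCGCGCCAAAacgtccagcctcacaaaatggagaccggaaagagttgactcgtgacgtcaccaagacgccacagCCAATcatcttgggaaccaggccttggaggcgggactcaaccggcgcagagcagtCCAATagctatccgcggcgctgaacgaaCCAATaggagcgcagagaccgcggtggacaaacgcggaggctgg
Mcm6: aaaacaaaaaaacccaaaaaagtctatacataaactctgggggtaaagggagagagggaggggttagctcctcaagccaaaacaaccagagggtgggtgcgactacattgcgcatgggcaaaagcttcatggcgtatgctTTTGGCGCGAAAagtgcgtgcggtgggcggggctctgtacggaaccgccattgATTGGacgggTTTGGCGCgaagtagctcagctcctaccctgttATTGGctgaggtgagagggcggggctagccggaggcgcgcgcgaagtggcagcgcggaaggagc

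Dividing cells were most frequent among cDC1, followed by cDC2, C1q-high macrophages and alveolar macrophages, and were almost missing among mature DCs. So that members could be read in dividing cells without having chosen them, a cell was called dividing when, after thinning to 2000 UMIs, it held UMIs of at least 5 of 108 other cell division genes. The call was set after the data were seen: the call planned first, any 3 of 144 such genes, marked 46.0% to 68.1% of the cells of the 5 classes but also 59.8% of 204 nonclassical monocytes and 72.7% of 22 neutrophils, and is read as background. The 108 genes are those with a UMI in at most 0.5% of 427 neutrophils and nonclassical monocytes thinned to 1000 UMIs.

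By this call 3 of 291 mature DCs (1.03%), 77 of 380 cDC1 (20.3%), 146 of 1024 cDC2 (14.3%), 170 of 1448 C1q-high macrophages (11.7%) and 276 of 4786 alveolar macrophages (5.77%) were dividing, 672 of 7929 in all (8.48%). Among other cells, 0 of 204 nonclassical monocytes (median 2148 UMIs), which allows a share of up to 1.79%, and 1 of 22 neutrophils (median 1670 UMIs) met it, as did 9 of 247 B cells (3.64%). The 108 genes were chosen for their low rate in those neutrophils and monocytes, so the low shares there follow from the choice and give no separate background. The 3 mature DCs called held 10 or more of the genes each, and no mature DC held 4 to 9. Intervals of shares and UMIs here and below are exact (Clopper-Pearson for shares, Poisson for UMIs, 95%) and cover counting error only. Intervals of a difference between shares are not exact but Newcombe intervals from Wilson limits (95%). They too cover counting error only. The class intervals were 0.213% to 2.98%, 16.3% to 24.7%, 12.2% to 16.6%, 10.1% to 13.5% and 5.12% to 6.47% in the same order.

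**Figure D1:**
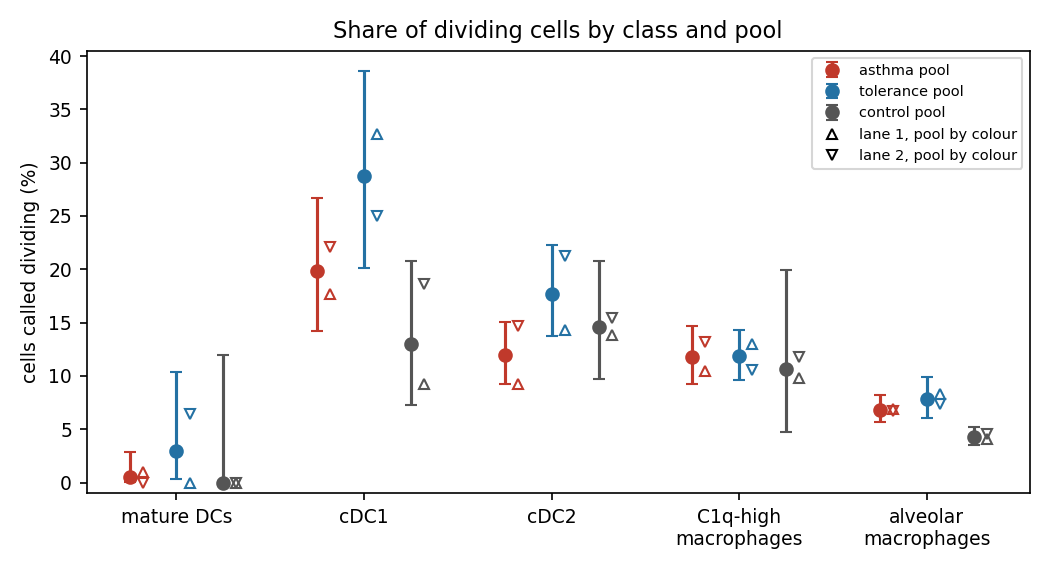
Share of cells called dividing (percent of cells with at least 2000 UMIs) in each class and treatment pool. Filled points are the 2 lanes together with exact 95% intervals, and open triangles are single lanes. cDC1 of the tolerance pool stand highest at 28.7%, and mature DCs lie between 0 and 2.99%.

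Across the 3 pools the order of the classes was nearly the same. Mature DCs had 0.513%, 2.99% and 0% dividing cells in the asthma, tolerance and control pools, and cDC1 had 19.9%, 28.7% and 12.96%. cDC2 had 11.9%, 17.7% and 14.6%, C1q-high macrophages 11.8%, 11.8% and 10.7%, and alveolar macrophages 6.83%, 7.81% and 4.31%. Only the places of cDC1 and cDC2 changed between pools, cDC1 being the higher in 2 of 3. As means over pools, cDC1 had 20.5 ± 7.89% and alveolar macrophages 6.32 ± 1.81% (SD, n = 3 each), cDC2 14.8 ± 2.90%, C1q-high macrophages 11.4 ± 0.652% and mature DCs 1.17 ± 1.60%. An exact 2-sided sign permutation over the 3 pools gave p = 0.25 for mature DCs against cDC1 and cDC2, for cDC1 against alveolar macrophages and for C1q-high against alveolar macrophages, and 0.25 is the smallest p that 3 pools allow. For cDC1 against cDC2 the exact permutation gave p = 0.50, with a mean difference of 5.77 ± 6.61 percentage points (SD, n = 3 pools).

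How many cells are called depended on depth and on the cut. Thinned to 4000 UMIs, 2.69% of mature DCs, 28.8% of cDC1, 22.0% of cDC2, 18.9% of C1q-high and 9.61% of alveolar macrophages were dividing, and without thinning the shares were 2.58%, 31.6%, 26.4%, 21.1% and 11.55% in that order. The cut divides a range and not a type: 0, 20, 38, 42 and 75 cells of the classes in the same order lay at 4 or 5 genes. When division genes were not held out of the clustering, the share of C1q-high macrophages was 5.08% and that of cDC2 22.3%, so the placing of dividing cells between these classes rests on the clustering. Dividing cells were deeper than the others, with medians of 11111 against 6680 UMIs in cDC1, 10769 against 6665 in cDC2, 9560 against 6431.5 in C1q-high and 6892.5 against 4985.5 in alveolar macrophages. Of the barcodes removed for more than 20000 UMIs, 14 of 22 (63.6%) met the call, and of the cells removed for a high doublet score 17 of 222 (7.66%). Whether doublets add to the dividing cells was not tested.

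Between the treatment pools, cDC1 of tolerance mice had the highest share of dividing cells at this depth and cut, but not under every call. It was 28.7% (20.1% to 38.6%), with 32.7% and 25.0% in lanes 1 and 2, against 12.96% (7.27% to 20.8%), with 9.23% and 18.6%, in cDC1 of control mice, a difference of 15.7 percentage points (interval 4.76 to 26.5). cDC1 of asthma mice lay between them at 19.9%, with 17.6% and 22.1% in the lanes, 6.92 points above control cDC1 (−2.36 to 15.3). Both lanes of the tolerance pool stood above both lanes of the control pool, with intervals that did not overlap in lane 1 and did in lane 2. One lane of the asthma pool fell among those of the control pool and the other above them. The difference depended on the call: thinned to 1000 UMIs the shares were 14.2%, 9.71% and 8.18% in asthma, tolerance and control cDC1, and by a UMI of Mki67 or Top2a 17.5%, 16.8% and 13.9%, so that asthma cDC1 then stood highest and the intervals of all 3 pools overlapped. Alveolar macrophage markers summed to 426, 332 and 1329 CPM in cDC1 of the asthma, tolerance and control pools, all 10 genes being detected in control cDC1, and their part in the difference was not tested.

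At this depth and cut, alveolar macrophages of both OVA-exposed pools had more dividing cells than those of the control pool, by 2.52 points in asthma (1.08 to 4.05) and 3.50 points in tolerance (1.63 to 5.68). Without thinning the shares were 11.8%, 14.3% and 10.4%, and the asthma and control intervals overlapped. Mki67 and Top2a were lower in asthma than in control, with 34.3 against 45.0 and 40.6 against 48.7 CPM, while Pcna was higher, with 74.2 against 60.6 CPM. Summed without Hmgb2 and Hmgn2, the mitotic, chromosome, nucleotide and replication members had 674 CPM in asthma and 661 CPM in control. The clusters that make up the class differed between pools: the cluster led by Fabp1 held 245, 100 and 1122 cells in asthma, tolerance and control, and the one led by Fbp1 914, 491 and 16. Within the Fabp1 cluster 6.25%, 6.06% and 3.61% of cells were dividing, and within the cluster led by Apoc1 6.06%, 6.67% and 2.87%. In the cluster led by Il18 the shares were 11.4%, 4.62% and 9.09%, so that asthma over control had the same direction in all 3 of these clusters and tolerance over control in 2 of 3. In the Fbp1 cluster the order was turned, with 5.72%, 9.15% and 13.3%, the last being 2 of 15 cells. cDC2 of the tolerance pool exceeded those of the asthma pool by 5.79 points (0.968 to 10.9), while against control cDC2 they stood 3.098 points higher (−4.03 to 9.45). In lanes 1 and 2 the tolerance pool had 14.3% and 21.2%, against 9.20% and 14.7% in asthma cDC2. Lane 2 of the asthma pool thus stood above lane 1 of the tolerance pool. Against control the direction turned by a UMI of Mki67 or Top2a, with 15.6% in tolerance and 18.7% in control cDC2, and at 4000 UMIs, with 24.6% and 25.2%. At a resolution of 1.5, where 88 tolerance and 143 asthma cells were deep enough, the shares were 29.5% in tolerance and 12.6% in asthma cDC2.

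In C1q-high macrophages the intervals of the differences from control reached in both directions at this depth. They cover counting error only, and a difference between pools was not tested. Asthma stood 1.09 points above control (−8.21 to 6.99) and tolerance 1.17 points (−8.07 to 6.88), with only 75 control cells deep enough. Without thinning the shares were 20%, 22.8% and 11.1% in asthma, tolerance and control cells, whose median depths were 5650, 7028.5 and 4747 UMIs. Within the cluster led by Retnla 13.4%, 14.98% and 12.5% of asthma, tolerance and control cells were dividing, and within the cluster led by Ccl8 9.36%, 9.81% and 9.80%.

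The members followed the call in unequal measure, although none was used in it. The 672 dividing cells held 12.3% of the UMIs of all genes in the 5 classes, but 95.8% of the UMIs of Ccna2 (cyclin A, of S phase and G2), 94.3% of Plk1, 93.6% of Top2a and 85.4% of Mki67, the proliferation antigen of the chromosome surface. In CPM, mitotic genes were a median of 59.1 times higher in dividing than in other cells (16.9 for Ccnb2 to 162 for Ccna2), and chromosome and spindle genes 41.4 times (2.16 for Hmgn2, a nucleosome-binding protein, to 105 for Top2a). Replication genes had a median of 8.55, from 3.95 for Pcna, the sliding clamp of DNA polymerase, to 93.5 for Pclaf, its binding partner. Nucleotide genes ran from 12.8 (Rrm1) to 95.8 (Rrm2), both subunits of ribonucleotide reductase.

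The D-type cyclins, Hmgn2, the tubulins, Pcna and the helicase genes were the members least tied to dividing cells. Mcm2, Mcm3, Mcm5, Mcm6 and Mcm7 had 44.4%, 42.6%, 54.3%, 48.0% and 54.9% of their UMIs there, Tubb5 39.6%, Pcna 35.7%, Tuba1b 33.2% and Hmgn2 23.4%. Ccnd1 had 22.3% at a ratio of 2.04, and Ccnd2 6.18% at a ratio of 0.468, the only member with a lower level in dividing cells. Within single classes Ccnd1 was near equal in both kinds of cell, with ratios of 1.05 in cDC1, 1.03 in cDC2, 1.75 in C1q-high and 1.10 in alveolar macrophages, and Ccnd2 was lower in dividing cells of each of these 4 classes, with ratios of 0.316, 0.602, 0.663 and 0.685. These ratios describe cells of the same pools and carry no test. Of thinned nonclassical monocytes, 0% had a UMI of Top2a and 0.490% of Mki67, against 51.6% and 48.2% of dividing cells and 0.717% and 1.57% of the other cells.

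**Figure D2:**
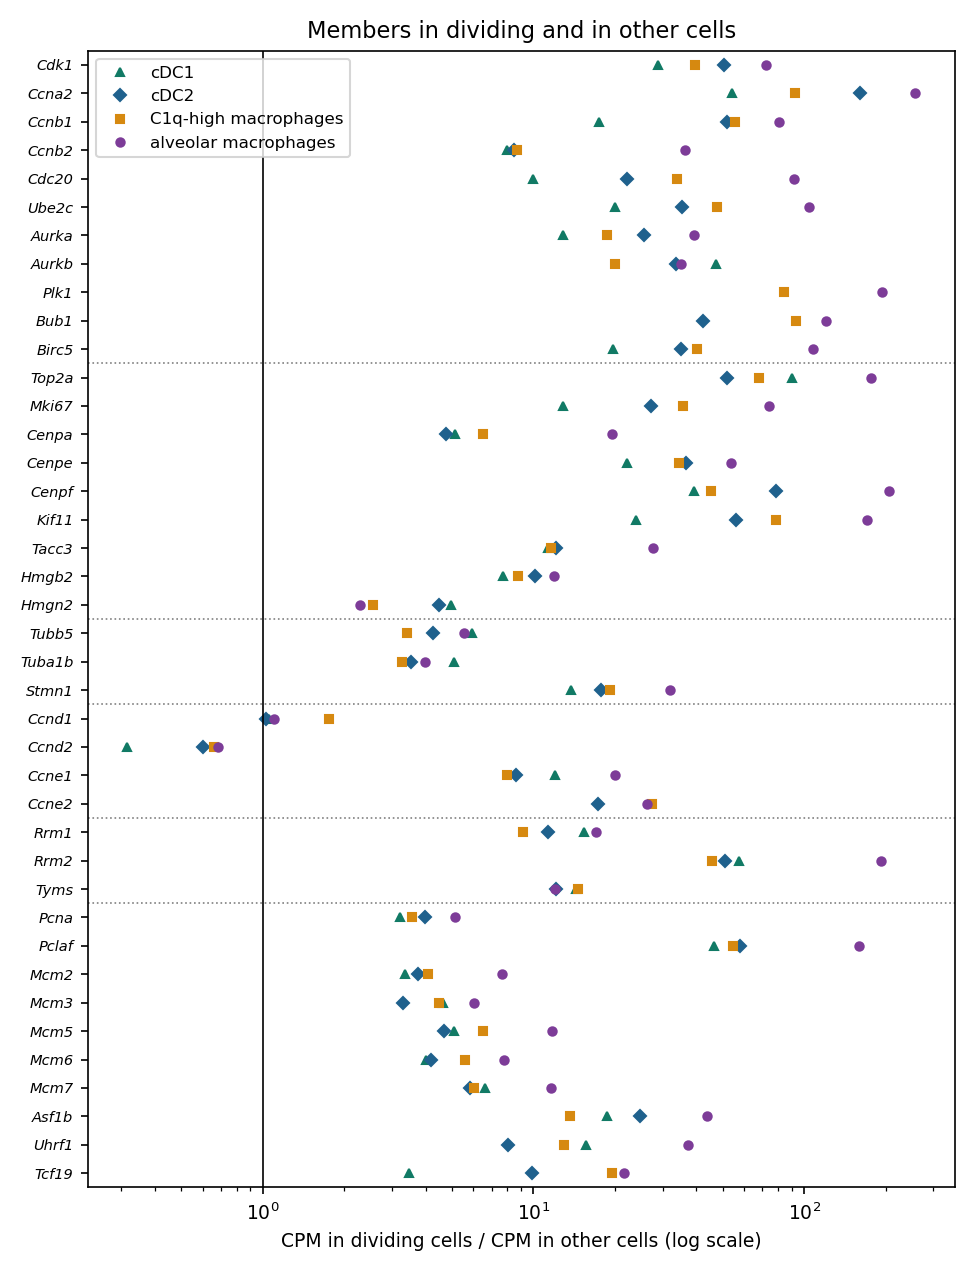
Ratio of each member's CPM in cells called dividing to its CPM in the other cells of the same class, on a log axis. Markers are the 4 classes with more than 3 dividing cells, dotted lines part the roles and points are left out where other cells held too few UMIs for a ratio. Mitotic genes of alveolar macrophages lie furthest right, at a median of 91.5 over 11 genes. In cDC1 the median was 19.7 over the 9 genes with a ratio, so the medians cover different genes. Ccnd2 lies left of 1 in all 4 classes.

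In dividing cells the balance between replication and nucleotide genes on one side and the mitotic, chromosome and spindle genes was similar in the 4 classes with more than 3 dividing cells. Replication and nucleotide genes made up 32.2% of their joint UMIs in cDC1, 32.6% in cDC2, 33.1% in C1q-high and 31.2% in alveolar macrophages. Within cDC1 the share was 34.2% and 35.1% in the asthma and tolerance pools and 21.9% (19.6% to 24.2%) in the 14 dividing cells of the control pool. cDC2 had 34.0% and 33.5%, against 25.6% in control cells, and alveolar macrophages 33.3% and 34.3%, against 28.1%. C1q-high macrophages had 33.1% and 32.8%, against 36.5% in 8 control cells. In 3 of the 4 classes the control pool thus had the lowest share. UMIs of 1 cell are not independent, so these intervals are too narrow.

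**Figure D3:**
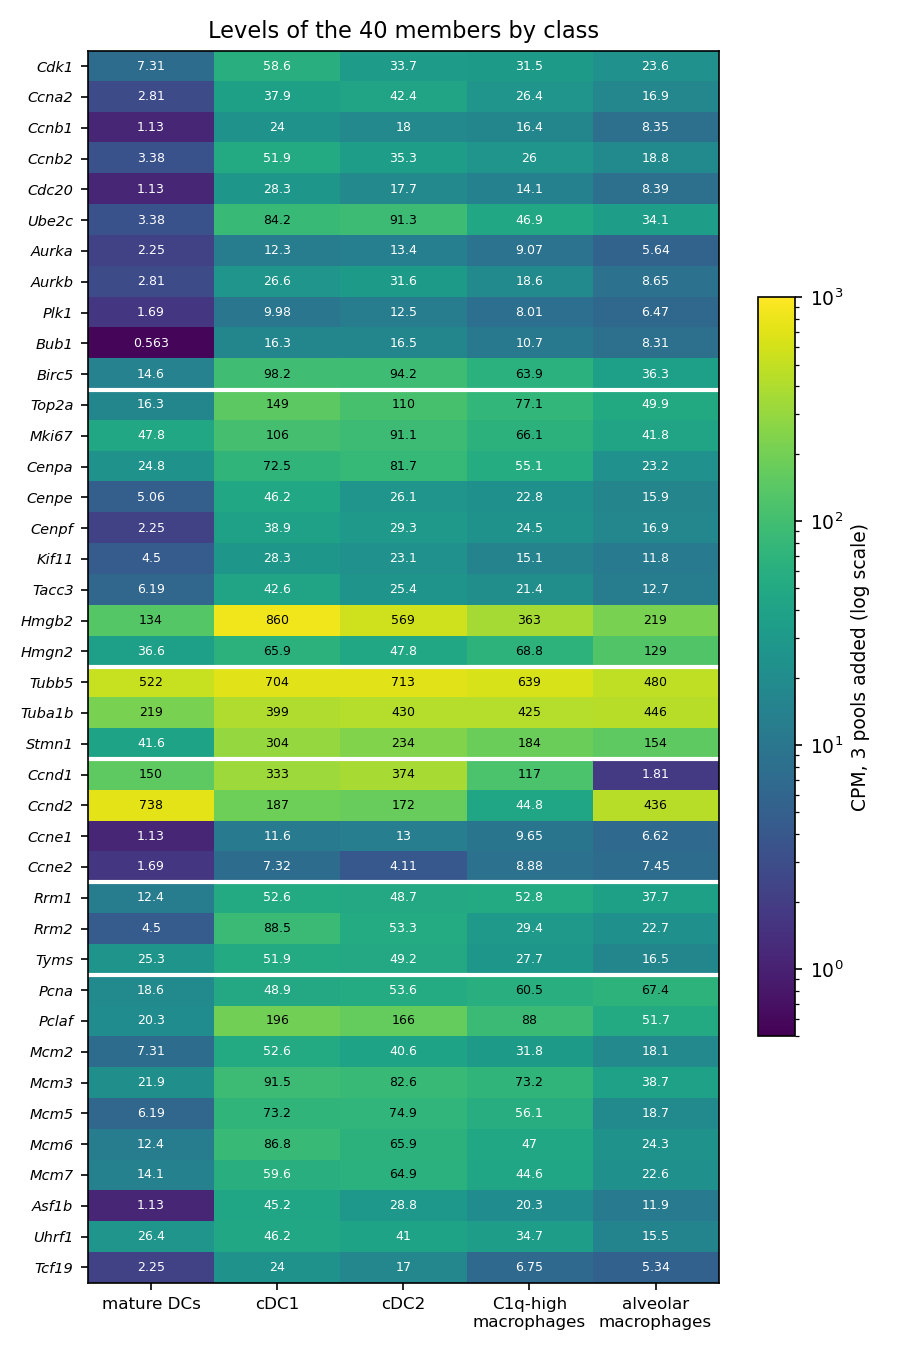
Level of each of the 40 members in the 5 classes, in CPM of the class with the 3 pools added, on a log colour scale with the value printed in each field. White lines part the roles. Of the 40 members, 34 are highest in cDC1 or cDC2 and 33 lowest in mature DCs. Ccnd2 is highest in mature DCs at 738 CPM, and Pcna, Hmgn2 and Tuba1b are highest in alveolar macrophages.

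Summed over whole classes, the members followed the same order. The 31 mitotic, chromosome, nucleotide and replication members, without the abundant Hmgb2 and Hmgn2, came to 321 CPM in mature DCs, 1850 CPM in cDC1, 1580 CPM in cDC2, 1126 CPM in C1q-high and 699 CPM in alveolar macrophages. By pool (asthma, tolerance, control) they came to 271, 484 and 209 CPM in mature DCs, 1830, 2220 and 1439 CPM in cDC1, and 1452, 1738 and 1652 CPM in cDC2. C1q-high macrophages had 1260, 1048 and 993 CPM and alveolar macrophages 674, 834 and 661 CPM. No pool of mature DCs or of alveolar macrophages reached the lowest pool of the other 3 classes. Lanes differed by up to 806 against 172 CPM in mature DCs of the tolerance pool, whose 2 dividing cells lay in lane 2.

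To test the classes, UMIs were summed per class and pool and fitted with edgeR's quasi-likelihood test over 9471 genes, all 40 members among them, with the pool as a block. In mature DCs over cDC1, 35 members were lower and 1 higher (Ccnd2), with a median log2 fold change of −2.53, where 19.9% of all genes were lower and 19.1% higher and their median was −0.06. In mature DCs over cDC2, 34 were lower and 1 higher, again Ccnd2, with a median of −2.17, against 21.4% lower and 19.8% higher of all genes and a median of −0.07. In cDC1 over alveolar macrophages, 34 members were higher and 3 lower (Ccnd2, Hmgn2 and Pcna), with a median of 1.48, against 25% and 28.6% of all genes and a median of −0.05. Without the tolerance pool 1 member, not 3, was lower there. In these contrasts the members' calls lay almost all on 1 side, unlike those of all genes.

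In C1q-high over alveolar macrophages, 21 members were higher and 2 lower (Ccnd2 and Hmgn2), with a median of 0.65, against 19.6% higher and 19.6% lower of all genes and a median of −0.0029. Without the asthma pool 7 were higher. In cDC1 over cDC2, 4 members were higher (Tacc3, Cdk1, Rrm2 and Hmgb2) and 0 lower, with a median of 0.21, against 7.11% higher and 7.12% lower of all genes, so that the count is near the background. That count of 4 was 0 without the asthma pool, without the tolerance pool or with doublets kept, 13 without the control pool, 7 without the filter on low counts and 1 when the pool was not used as a block. Without the asthma pool 21 members, not 35, were lower in mature DCs than in cDC1, and 22, not 34, lower than in cDC2.

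Mitotic cyclins and kinases were low in mature DCs and high in the other DCs. Of the 11, 11 were lower in mature DCs than in cDC1 and 11 lower than in cDC2, against 19.9% and 21.4% of all genes. Compared with alveolar macrophages, 10 were higher in cDC1 and 6 higher in C1q-high, against 25% and 19.6% of all genes. Cdk1 had 6.77, 10.9 and 0 CPM in mature DCs of the asthma, tolerance and control pools, 51.0, 75.7 and 51.4 CPM in cDC1, 28.1, 36.9 and 46.3 CPM in cDC2, 30.6, 33.0 and 18.5 CPM in C1q-high and 20.1, 31.2 and 22.9 CPM in alveolar macrophages. Its lowest cDC1 pool exceeded every cDC2 pool, and it was higher in cDC1 than in cDC2 by 0.80 ± 0.21 on the log2 scale (SE, edgeR adjusted p = 0.018). In mature DCs over cDC1 it changed by −2.72 ± 0.39 (adjusted p = 4.7e-05).

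Ube2c, the ubiquitin-conjugating enzyme of the anaphase-promoting complex, had 3.39, 4.38 and 0 CPM in mature DCs, against 51.7, 126 and 90.9 CPM in cDC1 and 72.8, 112 and 108 CPM in cDC2. The fold change was −4.32 ± 0.43 over cDC1 (adjusted p = 1.5e-06) and −4.42 ± 0.42 over cDC2 (adjusted p = 6.8e-07). Cdc20, the activator of that complex, had 0.846, 2.19 and 0 CPM in mature DCs, 21.7, 40.6 and 25.0 CPM in cDC1 and 10.0, 9.49 and 6.87 CPM in alveolar macrophages. The groups did not overlap for either gene. Cdc20 was higher in cDC1 than in alveolar macrophages by 1.81 ± 0.29 (adjusted p = 6.7e-05).

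Among the other mitotic genes, Bub1, a checkpoint kinase of the kinetochore, had 0, 2.19 and 0 CPM in mature DCs, against 15.7, 19.7 and 13.2 CPM in cDC1 (−4.56 ± 0.99, adjusted p = 0.0018). Ccnb1, a B-type cyclin of mitosis, had 0, 4.38 and 0 CPM in mature DCs, against 16.5, 36.2 and 22.4 CPM in cDC1 (−4.09 ± 0.83, adjusted p = 0.0011), and Ccnb2 2.54, 6.56 and 0 CPM, against 42.0, 63.6 and 55.3 CPM (−3.65 ± 0.52). Ccna2 had 2.54, 4.38 and 0 CPM in mature DCs, against 40.7, 46.4 and 38.7 CPM in cDC2 (−3.62 ± 0.44, adjusted p = 1.1e-05). These mature DC values are a few UMIs each, so the folds are imprecise. Aurkb, the kinase of the chromosomal passenger complex, had 21.7, 16.4 and 20.8 CPM in C1q-high, against 7.43, 11.0 and 8.497 CPM in alveolar macrophages (1.18 ± 0.23, adjusted p = 0.00063). Birc5 (survivin, of the same complex), Plk1 and Aurka, a spindle pole kinase, had 14.6, 1.69 and 2.25 CPM in mature DCs with the pools added, against 98.2, 9.98 and 12.3 CPM in cDC1, and Plk1 did not pass in cDC1 over alveolar macrophages (0.64 ± 0.33, adjusted p = 0.12).

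Of the 9 chromosome and spindle genes, 8 were lower in mature DCs than in cDC1 and 7 lower than in cDC2. Another count was 8 higher in cDC1 than in alveolar macrophages. The shares of all genes in these contrasts were 19.9%, 21.4% and 25%. Top2a had 9.31, 39.4 and 0 CPM in mature DCs, 157, 145 and 141 CPM in cDC1, 95.9, 123 and 127 CPM in cDC2, 89.0, 70.6 and 57.7 CPM in C1q-high and 40.6, 68.0 and 48.7 CPM in alveolar macrophages. Its cDC1 pools lay above every pool of the other classes, yet cDC1 over cDC2 did not pass (0.44 ± 0.26, adjusted p = 0.31), whereas cDC1 over alveolar macrophages did (1.63 ± 0.25, adjusted p = 5.8e-05). Hmgb2, a chromatin protein of the HMG box family, had 124, 158 and 137 CPM in mature DCs, 923, 909 and 691 CPM in cDC1, 543, 582 and 637 CPM in cDC2, 403, 337 and 360 CPM in C1q-high and 211, 226 and 222 CPM in alveolar macrophages. The 5 classes did not overlap for Hmgb2, and it passed in all 5 contrasts: −2.40 ± 0.16 and −1.83 ± 0.16 in mature DCs over cDC1 and cDC2, 0.56 ± 0.14 in cDC1 over cDC2, 2.03 ± 0.14 in cDC1 and 0.78 ± 0.14 in C1q-high over alveolar macrophages.

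Tacc3, a spindle microtubule protein, had 42.0, 55.9 and 27.7 CPM in cDC1, 23.6, 29.2 and 22.7 CPM in cDC2 and 12.3, 13.2 and 12.7 CPM in alveolar macrophages. It was higher in cDC1 than in cDC2 by 0.81 ± 0.26 (adjusted p = 0.045), although the pools of the 2 classes overlapped, and higher than in alveolar macrophages by 1.79 ± 0.25. Cenpa, the centromeric histone, had 59.9, 52.4 and 48.5 CPM in C1q-high and 64.5, 91.0 and 64.5 CPM in cDC1, against 23.4, 19.8 and 24.4 CPM in alveolar macrophages, and passed in both contrasts (1.31 ± 0.18 and 1.78 ± 0.19). Cenpf, a kinetochore protein, fell by 3.70 ± 0.80 in mature DCs over cDC1 (adjusted p = 0.0017), and Cenpe and Kif11, mitotic motor proteins, fell by 2.84 ± 0.56 and 2.36 ± 0.61. Hmgn2 ran the other way from its group, with 66.7, 81.1 and 46.1 CPM in cDC1 and 74.1, 64.2 and 83.1 CPM in C1q-high, against 120, 114 and 140 CPM in alveolar macrophages (−0.83 ± 0.20 and −0.74 ± 0.19).

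Mki67 and Hmgn2 differed least between mature DCs and the other DCs among the chromosome genes. Hmgn2 had 27.9, 59.1 and 36.0 CPM in mature DCs of the asthma, tolerance and control pools and passed neither over cDC1 (−0.52 ± 0.29, adjusted p = 0.17) nor over cDC2 (−0.08 ± 0.28, adjusted p = 0.85). Mki67 had 39.8, 61.3 and 72.0 CPM in mature DCs, against 116, 102 and 94.8 CPM in cDC1, 72.3, 93.5 and 156 CPM in cDC2, 68.3, 64.4 and 69.3 CPM in C1q-high and 34.3, 45.9 and 45.0 CPM in alveolar macrophages. Its change was −0.79 ± 0.27 over cDC1 (adjusted p = 0.032) and −0.67 ± 0.27 over cDC2 (adjusted p = 0.057). Its 85 UMIs in mature DCs lay in 27 of 310 cells, 46 of them in the 3 dividing cells, while Top2a had 29 UMIs in 6 cells, 26 of them in the dividing cells. In the mature DCs of at least 2000 UMIs not called dividing, Mki67 had 21.1 CPM and Top2a 1.76 CPM, against 24.4 and 5.62 CPM in such cDC1 and 14.7 and 9.87 CPM in such cDC2. In the edgeR fit without dividing cells, which also kept the shallower cells, Mki67 was near equal in mature DCs and cDC1 (log2 fold change 0.10 ± 0.54, adjusted p = 0.91), an estimate that could hide a change in either direction.

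Of the tubulins and stathmin, Stmn1, which destabilises microtubules, had 28.8, 87.5 and 0 CPM in mature DCs, 340, 308 and 238 CPM in cDC1, 194, 252 and 340 CPM in cDC2, 193, 176 and 206 CPM in C1q-high and 130, 170 and 163 CPM in alveolar macrophages. It fell by 2.53 ± 0.39 in mature DCs over cDC1 (adjusted p = 0.00012) and was higher in cDC1 than in alveolar macrophages by 1.06 ± 0.30 (adjusted p = 0.0066). Tubb5 and Tuba1b, a beta and an alpha tubulin, are used by every cell and differed less. Tubb5 had 522, 704, 713, 639 and 480 CPM and Tuba1b 219, 399, 430, 425 and 446 CPM in mature DCs, cDC1, cDC2, C1q-high and alveolar macrophages, with the pools added. Tuba1b was lower in mature DCs than in cDC1 (−0.69 ± 0.20, adjusted p = 0.013) and in cDC2 (−0.72 ± 0.20), and Tubb5 was higher in cDC1 (0.64 ± 0.15) and in C1q-high (0.38 ± 0.14, adjusted p = 0.048) than in alveolar macrophages. Tubulins, Hmgn2 and Hmgb2 have near-identical gene copies, so their counts are less certain.

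The D-type cyclins, which start the cycle in G1, split the classes. Ccnd1 had 129, 210 and 137 CPM in mature DCs, 343, 389 and 248 CPM in cDC1, 319, 432 and 426 CPM in cDC2, 99.4, 130 and 102 CPM in C1q-high and 2.12, 3.68 and 0.850 CPM in alveolar macrophages. No pool of alveolar macrophages came near any other class, and the log2 fold change was 7.46 ± 0.30 in cDC1 (adjusted p = 2.2e-11) and 5.82 ± 0.29 in C1q-high (adjusted p = 7.4e-10) over alveolar macrophages, the largest of any member in both contrasts. It fell by 0.87 ± 0.24 in mature DCs over cDC1 (adjusted p = 0.0085). Dividing alveolar macrophages had as little as the others, 2.00 against 1.81 CPM.

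Ccnd2 was ordered otherwise, with 741, 869 and 281 CPM in mature DCs, 222, 171 and 146 CPM in cDC1, 136, 191 and 259 CPM in cDC2, 45.8, 42.8 and 62.3 CPM in C1q-high and 422, 392.5 and 462 CPM in alveolar macrophages. It was higher in mature DCs than in cDC1 by 2.07 ± 0.33 (adjusted p = 0.00014) and than in cDC2 by 2.02 ± 0.33 (adjusted p = 0.00015), and lower in C1q-high (−3.13 ± 0.35, adjusted p = 3.0e-06) and in cDC1 (−1.14 ± 0.31, adjusted p = 0.0061) than in alveolar macrophages. The lowest pool of mature DCs, the control pool of 33 cells, still exceeded every pool of cDC1 and cDC2. Alveolar macrophages, where Ccnd1 was near 0, thus held Ccnd2, C1q-high macrophages held little of it and more Ccnd1, and cDC1 and cDC2 held both. The E-type cyclins of S phase entry were low: Ccne1 had 1.13, 11.6, 12.98, 9.65 and 6.62 CPM and Ccne2 1.69, 7.32, 4.11, 8.88 and 7.45 CPM in mature DCs, cDC1, cDC2, C1q-high and alveolar macrophages. Ccne1 was lower in mature DCs than in cDC1 (−3.17 ± 0.74, adjusted p = 0.0031), and Ccne2 passed in no contrast.

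**Figure D4:**
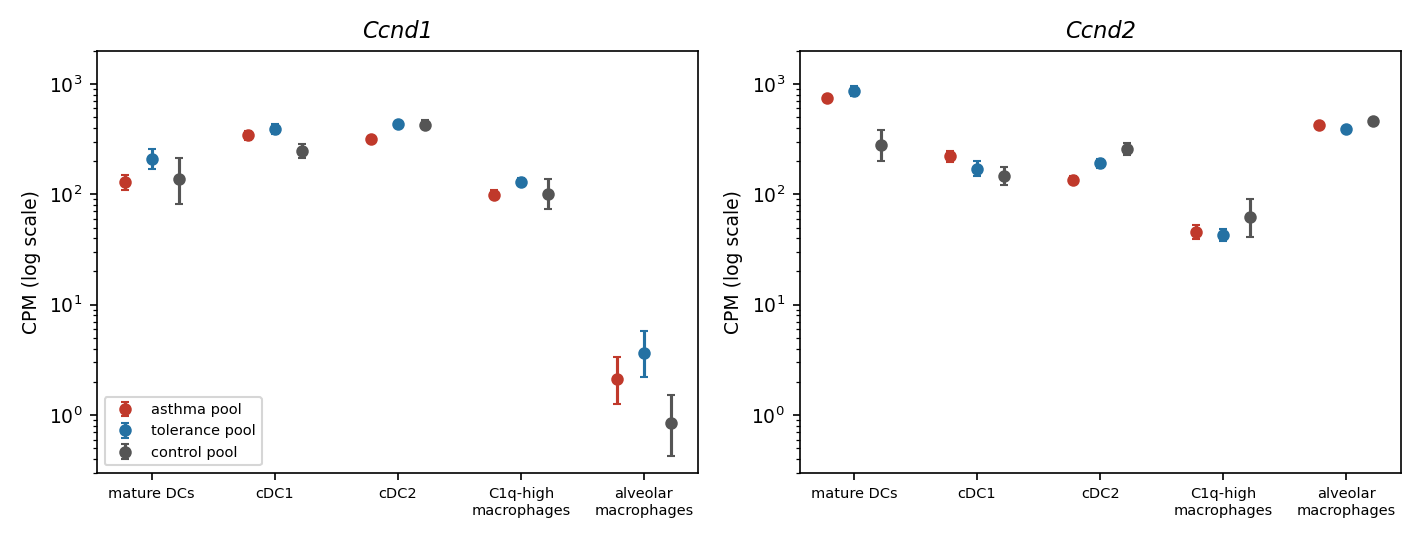
CPM of the D-type cyclins Ccnd1 (left) and Ccnd2 (right) in the 5 classes, by pool, on log axes with exact 95% Poisson intervals. Ccnd1 is between 0.850 and 3.68 CPM in alveolar macrophages and at 99.4 CPM or more elsewhere, and Ccnd2 is highest in mature DCs of the tolerance pool at 869 CPM.

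Nucleotide genes followed the mitotic ones. Rrm2 had 2.54, 10.9 and 0 CPM in mature DCs, 81.7, 111 and 73.7 CPM in cDC1, 49.2, 58.8 and 54.8 CPM in cDC2, 37.9, 23.6 and 32.3 CPM in C1q-high and 21.7, 28.3 and 21.2 CPM in alveolar macrophages. Its cDC1 pools lay above all others. It changed by −4.05 ± 0.45 in mature DCs over cDC1 (adjusted p = 4.5e-06), by 0.78 ± 0.22 in cDC1 over cDC2 (adjusted p = 0.023) and by 2.00 ± 0.21 in cDC1 over alveolar macrophages (adjusted p = 1.1e-06). Rrm1 and Tyms, the thymidylate synthase, fell by 1.82 ± 0.31 and 0.83 ± 0.23 in mature DCs over cDC1, with 12.4 and 25.3 CPM in mature DCs, against 52.6 and 51.9 CPM in cDC1. These falls did not hold in the edgeR fit without dividing cells. There Tyms turned sign in mature DCs over cDC1 (0.95 ± 0.36, adjusted p = 0.054), and Rrm1 was at −0.33 ± 0.42 (adjusted p = 0.66). Rrm1 also turned in cDC1 over alveolar macrophages (−0.56 ± 0.27, adjusted p = 0.11).

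Replication genes gave 9 of 10 lower in mature DCs than in cDC1 and in cDC2, against 19.9% and 21.4% of all genes. Compared with alveolar macrophages, 9 of 10 were higher in cDC1 and 7 of 10 in C1q-high, against 25% and 19.6% of all genes. Mcm5 had 5.08, 6.56 and 14.4 CPM in mature DCs, 77.9, 93.2 and 40.8 CPM in cDC1, 71.6, 89.5 and 50.04 CPM in cDC2, 60.9, 53.0 and 55.4 CPM in C1q-high and 21.5, 23.4 and 14.9 CPM in alveolar macrophages. The change was −3.36 ± 0.35 in mature DCs over cDC1 (adjusted p = 1.9e-06), 1.91 ± 0.18 in cDC1 (adjusted p = 3.0e-07) and 1.46 ± 0.17 in C1q-high (adjusted p = 4.5e-06) over alveolar macrophages, and 0.06 ± 0.17 in cDC1 over cDC2 (adjusted p = 0.89). Its helicase partners moved alike: Mcm3, Mcm6 and Mcm7 had 21.9, 12.4 and 14.1 CPM in mature DCs, 91.5, 86.8 and 59.6 CPM in cDC1, 82.6, 65.9 and 64.9 CPM in cDC2, 73.2, 47.0 and 44.6 CPM in C1q-high and 38.7, 24.3 and 22.6 CPM in alveolar macrophages. They were higher in C1q-high than in alveolar macrophages by 0.85 ± 0.17, 0.95 ± 0.17 and 0.90 ± 0.19, and Mcm2 by 0.69 ± 0.18.

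Pcna differed from the helicase. It had 19.5, 17.5 and 14.4 CPM in mature DCs, 51.7, 61.4 and 29.0 CPM in cDC1, 58.0, 49.7 and 47.2 CPM in cDC2, 75.9, 52.5 and 30.02 CPM in C1q-high and 74.2, 73.0 and 60.6 CPM in alveolar macrophages. It was lower in cDC1 than in alveolar macrophages (−0.47 ± 0.18, adjusted p = 0.039), where the pools overlapped narrowly, and lower in mature DCs than in cDC1 (−1.25 ± 0.29, adjusted p = 0.0031). Pclaf had 20.3, 26.3 and 0 CPM in mature DCs, 245, 220 and 81.7 CPM in cDC1 and 52.5, 74.7 and 42.0 CPM in alveolar macrophages. Asf1b, a histone chaperone, had 0, 4.38 and 0 CPM in mature DCs, against 40.5, 60.3 and 35.6 CPM in cDC1, the largest fall of any member there (−5.06 ± 0.64, adjusted p = 1.5e-05).

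Tcf19, a gene of the G1/S transition, had 25.5, 31.8 and 11.9 CPM in cDC1, against 5.07, 6.97 and 4.87 CPM in alveolar macrophages (2.16 ± 0.32, adjusted p = 3.8e-05). Uhrf1, which carries DNA methylation through replication, had 25.4, 28.4 and 28.8 CPM in mature DCs and 47.2, 54.8 and 34.2 CPM in cDC1. It was the replication gene that did not pass in mature DCs (−0.62 ± 0.25 over cDC1, adjusted p = 0.064). In C1q-high macrophages it had 43.7, 28.8 and 34.6 CPM, against 17.7, 17.0 and 13.5 CPM in alveolar macrophages (1.13 ± 0.16, adjusted p = 4.8e-05).

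With the dividing cells left out, 25 members had enough counts to be tested and part of them still differed between classes. In C1q-high over alveolar macrophages 12 were higher and 2 lower, among them Mcm5 (1.39 ± 0.22), Cenpa (1.57 ± 0.25) and Ccnd1 (5.71 ± 0.33). In cDC1 over alveolar macrophages 16 were higher and 3 lower (Pcna, Hmgn2 and Tuba1b), and in cDC1 over cDC2 only Hmgb2 passed (0.62 ± 0.16). In mature DCs over cDC1 13 were lower and 3 higher: Ccnd2 (1.65 ± 0.33), Uhrf1 (1.53 ± 0.45, adjusted p = 0.014) and Tubb5 (0.73 ± 0.18, adjusted p = 0.0045). Uhrf1 had 25.2 CPM in non-dividing mature DCs, 8.91 CPM in such cDC1 and 17.0 CPM in such cDC2. In mature DCs over cDC2 14 were lower and Ccnd2 alone was higher (1.83 ± 0.33). In this fit over 9027 genes, 19.1% of all genes were higher and 19% lower in C1q-high over alveolar macrophages, 24.2% and 25% in cDC1 over alveolar macrophages, 7.54% and 6.15% in cDC1 over cDC2, 17% and 18.6% in mature DCs over cDC1, and 19.5% and 20.9% in mature DCs over cDC2. Cells just below the cut stay among these cells, and their part in the differences was not tested.

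Genes of the pathway outside the 40 moved with the members in mature DCs over cDC1 and cDC2 and in cDC1 over alveolar macrophages. Since some of these genes made the call, only the whole-class contrasts are given for them. Of 57 tested replication genes, 51 were lower and 1 higher in mature DCs than in cDC1, 53 and 0 in mature DCs over cDC2, 0 lower and 47 higher in cDC1 over alveolar macrophages, 0 and 24 in C1q-high over alveolar macrophages and 0 and 2 in cDC1 over cDC2. Of 63 mitotic genes, 46 were lower and 1 higher in mature DCs than in cDC1, 42 and 1 over cDC2, 3 lower and 49 higher in cDC1 over alveolar macrophages, 5 and 15 in C1q-high over alveolar macrophages and 0 and 4 in cDC1 over cDC2. Of all genes, 19.9% were lower and 19.1% higher in mature DCs over cDC1, and 21.4% and 19.8% over cDC2. Over alveolar macrophages 28.6% were lower and 25% higher in cDC1, and 19.6% and 19.6% in C1q-high. In cDC1 over cDC2 these shares were 7.12% and 7.11%, so the counts there are not above the background. The 15 of 63 mitotic genes higher in C1q-high are near it. Cdca7 (−5.13 ± 0.83), a chromatin factor, and E2f8 (−4.70 ± 1.04), a repressor of the E2F family, fell in mature DCs over cDC1, and by 5.02 and 4.38 over cDC2, while Ckap2 and Nek2 had no UMI in mature DCs of any pool. Lmnb1 (2.58 ± 0.16), a nuclear lamin, Cenpm (2.39 ± 0.29), Mybl2 (2.34 ± 0.41) and Cenpn (2.31 ± 0.38) were the most raised in cDC1 over alveolar macrophages.

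Not every gene of the list was lower in alveolar macrophages. Cdc25b, a phosphatase that activates Cdk1, Bub1b, a checkpoint protein, and Anln, of the cleavage furrow, were lower in cDC1 than in alveolar macrophages (−1.52 ± 0.46 with overlapping pools, −0.88 ± 0.23 and −1.15 ± 0.39), as was the G1 kinase Cdk6 (−0.82 ± 0.21). In C1q-high over alveolar macrophages, Cdc25b (−1.61 ± 0.36), Bub1b (−1.04 ± 0.19), Cdc25a (−0.76 ± 0.23) and Pttg1 (−0.71 ± 0.19) were lower, and Rmi2 (1.52 ± 0.33), Cdca7 (1.46 ± 0.27), Tk1 (1.37 ± 0.24) and E2f8 (1.31 ± 0.31) were higher. In cDC1 over cDC2, Kif23 (1.06 ± 0.27), Btg1 (1.03 ± 0.18), Cdc6 (0.96 ± 0.29) and Pttg1 (0.93 ± 0.22) were higher, and Cdkn2d (−0.94 ± 0.20) and Ccnd3 (−0.83 ± 0.25) lower.

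Some inhibitors of the cycle were higher in mature DCs, but most of the list was not. Of 13 tested genes, 5 were higher and 3 lower than in cDC1, where 19.1% of all genes were higher and 19.9% lower, and 5 were higher and 2 lower than in cDC2, against 19.8% and 21.4% of all genes. Cdkn2b, an inhibitor of the kinases of D-type cyclins, had 53.3, 56.9 and 101 CPM in mature DCs of the asthma, tolerance and control pools, against 3.75, 0 and 0 CPM in cDC1 (5.44 ± 0.55, adjusted p = 1.7e-06) and 0.251, 0 and 0.944 CPM in cDC2 (7.97 ± 0.60). Cdkn2a, of the same gene family, had 20.3, 21.9 and 50.4 CPM, against 0.749, 0 and 2.63 CPM in cDC1 (4.88 ± 0.69, adjusted p = 4.5e-05), and Cdkn1a, an inhibitor that p53 can induce, 1009, 1105 and 872 CPM, against 311, 192 and 367 CPM (2.02 ± 0.23, adjusted p = 5.9e-06). For these 3 genes every mature DC pool exceeded every cDC1 pool. Ccng2 (2.31 ± 0.26) and Btg1 (1.5 over cDC1 and 2.53 over cDC2) were also higher. Cdkn2d, Cdkn2c and Btg2 were lower than in cDC1 (−1.59 ± 0.34, −1.19 ± 0.40 and −1.31 ± 0.14), so the list did not move as a whole.

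Of 15 tested factors that drive the programs, 5 were lower in mature DCs than in cDC1, 0 higher and 10 did not pass, where 19.9% of all genes were lower. Over cDC2, 9 were lower and 1 higher, against 21.4% of all genes lower. Of the 11 other G1 genes 4 were lower and 0 higher than in cDC1. Foxm1, which drives mitotic genes, had 0, 2.19 and 0 CPM in mature DCs, against 10.5, 16.4 and 10.5 CPM in cDC1 (−4.10 ± 0.98, adjusted p = 0.0038). E2f1 had 5.08, 6.56 and 0 CPM, against 30.7, 28.5 and 26.3 CPM (−2.24 ± 0.37, adjusted p = 0.00018), and Myc 3.39, 0 and 0 CPM, against 12.7, 19.7 and 25.0 CPM (−2.72 ± 0.66). Cdk4, the partner of D-type cyclins, had 33.9, 28.4 and 28.8 CPM in mature DCs, against 97.4, 109 and 68.5 CPM in cDC1 (−1.35 ± 0.18, adjusted p = 2.4e-05), and Ccnd3 38.9, 30.6 and 72.0 CPM, against 169, 186 and 113 CPM (−1.74 ± 0.34). Of the D-type cyclins, Ccnd2 was thus higher and Ccnd1 and Ccnd3 lower in mature DCs than in cDC1.

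Between treatments inside a class, values were compared by size alone: a member was counted when it differed by at least 2 times, with 1 count added to each side, and had at least 50 UMIs in the 2 pools. In cDC1 of tolerance over control mice 7 of 32 such members were higher and 0 lower, where 7.39% of all genes were past that fold in either direction. All 7 were replication genes: Mcm7 (log2 fold 1.44), Pclaf (1.42), Mcm5 (1.16), Mcm3 (1.10), Mcm2 (1.06), Pcna (1.05) and Mcm6 (1.04). Mcm5 had 93.2 CPM in tolerance and 40.8 CPM in control cDC1 (1.13 in lane 1 and 1.26 in lane 2), Mcm7 70.2 and 25.0 CPM (0.70 and 2.45) and Pclaf 220 and 81.7 CPM (1.69 and 1.10). Each of the 7 was higher in both lanes, and in a single lane Mcm2, Mcm3 and Mcm6 came to 0.46, 0.58 and 0.47 in lane 2. With 5 counts added, 4 of the 7 were past the fold.

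In cDC1 of asthma over control mice 2 of 32 were higher (Pclaf 1.57 with 245 against 81.7 CPM, and Mcm7 1.46 with 71.9 against 25.0 CPM) and 1 lower (Cenpf, −1.21, with 25.5 against 59.3 CPM), against 5.19% of all genes. In tolerance over asthma 2 of 35 were higher, Ube2c (1.28, with 126 against 51.7 CPM) and Ccnb1 (1.11, with 36.2 against 16.5 CPM), against 1.14%. Pclaf was thus high in both OVA-exposed pools and low in control cDC1.

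**Figure D5:**
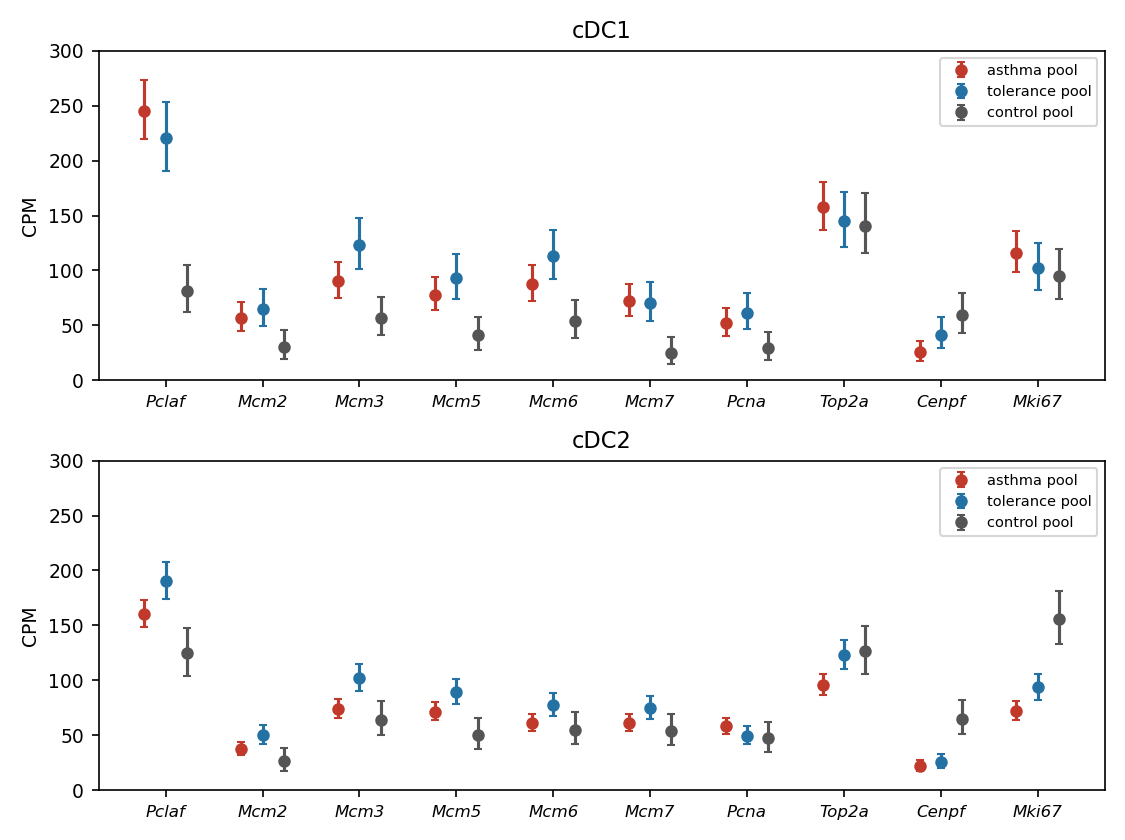
CPM of 7 replication genes (left) and of Top2a, Cenpf and Mki67 (right) in cDC1 (upper panel) and cDC2 (lower panel) of the 3 pools, with exact 95% Poisson intervals. In cDC1 the replication genes are lowest in the control pool, while Cenpf is highest there in both classes, at 59.3 and 65.2 CPM.

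In cDC2 the members past the fold against control were no larger a part than among all genes, so their counts are not above the background. In asthma over control 0 of 39 members were higher and 3 lower, Cenpf (−1.56), Mki67 (−1.11) and Cenpe (−1.10), against 9.92% of all genes, and in tolerance over control Ccne1 was higher (1.24, 48 against 7 UMIs) and Cenpf lower (−1.33), against 8.52%. Mki67 had 72.3 and 93.5 CPM in cDC2 of the asthma and tolerance pools, against 156 CPM in control cDC2, and Cenpf 22.1 and 25.9 CPM, against 65.2 CPM. In lane 1 Mki67 stood at −1.95 and in lane 2 at −0.47 in asthma over control. Alveolar macrophage markers were again higher in control cDC2, with 432, 341 and 1640 CPM in asthma, tolerance and control, and their part was not tested.

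In alveolar macrophages 0 of 39 members passed the fold in asthma over control or in tolerance over control, where 5.76% and 7.77% of all genes did. In C1q-high macrophages 4 of 36 were higher in asthma over control (Kif11, Pcna, Pclaf and Birc5), against 9.28%, and in tolerance over control 1 of 38 was higher (Kif11) and 2 lower (Bub1 and Cdc20), against 9.16%. Control C1q-high macrophages are 81 cells, and Kif11 rested on 2 UMIs there. Pcna had 75.9 and 52.5 CPM in asthma and tolerance, against 30.02 CPM in control cells.

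In mature DCs few members had 50 UMIs in a pair of pools. Ccnd2 was higher in asthma over control (1.36, with 741 against 281 CPM, 1.24 and 1.40 in the lanes), 1 of 6 members, against 13.7% of all genes. In tolerance over control Ccnd2 (1.60, with 869 against 281 CPM) and Tuba1b (1.48, with 319 against 108 CPM) were higher, 2 of 5, against 11.2%. In tolerance over asthma Stmn1 (1.60) and Hmgn2 (1.09) were higher, 2 of 8, against 1.47%, but Stmn1 stood at −2.13 in lane 1 and 5.11 in lane 2. Of the 40 members, 3 had no UMI in mature DCs of the asthma pool, 1 in the tolerance pool and 23 in the control pool, whose 33 cells held 138819 UMIs.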

How the data were processed

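Droplet single-cell RNA sequencing (10x) was run on lung phagocytes of 3 treatments in 2 lanes. The authors deposited UMI count matrices per treatment and lane, whole numbers that were not normalized, together with hashtag antibody counts, and per the submitters' processing notes the tools were Cell Ranger 3.1.0, STAR and Seurat 3.1.5 with build mm10. Each cell took its pool from the treatment that the labels give its matrix, and 0 columns of other samples were set aside.

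Cells with at most 20% mitochondrial UMIs, at most 20000 UMIs and at least 500 genes were kept, as were genes in at least 5 cells. The doublet caller marked under 0.5% of the barcodes of each lane by its own threshold, so the highest 2% of doublet scores per lane were removed. Clustering (scanpy 1.11.5, igraph 0.11.9, scikit-learn 1.9.0, Python 3.11.15, numpy 2.4.6, pandas 2.3.3, scipy 1.17.1, seed 1) used 2000 variable genes, 30 components, 15 neighbours and a resolution of 1, without listed division genes and genes correlated with their score above 0.15. Classes were named from marker lists, so shares may differ from those of the study's own clusters. For the dividing call each cell was thinned to 2000 UMIs, shallower cells being left out.

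UMIs were summed per class and pool over both lanes into 15 libraries and tested with edgeR 4.0.16 (limma 3.58.1, R 4.3.3): TMM scaling, filterByExpr, quasi-likelihood test, Benjamini-Hochberg adjustment over all tested genes and a threshold of 0.05. The pool was a block because the 5 classes of a pool come from the same mice. The test was tested on simulated data with 200 changed genes. CPM are UMIs of a gene per 1000000 UMIs of the class. Between treatments, folds of at least 2 with 1 count added were counted for genes with at least 50 UMIs in 2 pools. Alternatives were DESeq2 1.42.0 and its size factors, other filters, thinning depths, calls, resolutions and hold-outs, and leaving out each pool or lane.

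All 40 members are accounted for. Named in any case were Mki67, Top2a, Pcna, Mcm5, Ccnd1, Ccnd2 and Stmn1, then up to 10 members per direction and contrast by fold, the largest folds between pools, and of the outside lists the 4 largest per direction. Foxm1, E2f1, Myc, Cdk4, Ccnd3, Cdkn2a, Cdkn1a, Cdkn2c, Cdkn2d, Btg2 and Ccng2 were named after their values were seen. The members, lists and tests were chosen with earlier results of these data known, and the call on specific genes after seeing the data.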

Additional observations from a re-analysis of the deposited data

Results flagged for a closer look

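In 3 cases a member differed by at least 2 times between treatments in both lanes of one class. In both lanes of another class it moved the opposite way, by any amount. The other class given is the one that moved furthest the opposite way. The lanes are technical replicates of the same pools and the difference between the classes was not tested. Ccnd2 in asthma over control stood at a log2 fold of 1.36 in mature DCs (1.24 and 1.40 in lanes 1 and 2, 741 against 281 CPM) and at −0.93 in cDC2 (−0.72 and −1.13, 136 against 259 CPM).

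Ccnd2 in tolerance over control stood at 1.60 in mature DCs (1.45 and 1.66, 869 against 281 CPM) and at −0.59 in C1q-high macrophages (−0.86 and −0.43, 42.8 against 62.3 CPM). The control value of mature DCs comes from 33 cells. Mcm5 in tolerance over control stood at 1.16 in cDC1 (1.13 and 1.26, 93.2 against 40.8 CPM) and at −0.12 in C1q-high macrophages (−0.03 and −0.30, 53.0 against 55.4 CPM), where the levels of both pools nearly coincide.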

How the results depend on the processing

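Of the recomputed shares and counts, 259 stayed in the exact 95% interval of the share or within 1.5 times the count and 107 did not. Member fold changes were tallied for Mki67, Top2a, Pcna, Mcm5, Ccnd1, Ccnd2 and Stmn1 alone. Of these, 397 kept direction and call, 28 lost the call, 13 gained it and 17 changed sign. Over all members, most signs turned with dividing cells left out. There 9 of 25 tested members changed sign in cDC1 over cDC2, none of which had passed. In mature DCs over cDC1 6 of 25 did, 3 of which had passed. Values by class are given below for mature DCs, cDC1, cDC2, C1q-high and alveolar macrophages in that order unless named, and where no cause is stated the cause was not tested.

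The share of dividing cells by the call on specific genes was 1.03%, 20.3%, 14.3%, 11.7% and 5.77%. Thinning to 1000 UMIs gave 11.3%, 9.79%, 6.75% and 3.89% for cDC1, cDC2, C1q-high and alveolar macrophages, thinning to 4000 UMIs gave 28.8%, 22.0%, 18.9% and 9.61%, and no thinning gave 31.6%, 26.4%, 21.1% and 11.55%. At least 2 specific genes gave 7.56%, 32.9%, 29.9%, 24.2% and 18.9% for the 5 classes, and at least 3, an alternative chosen after seeing the data, gave 27.1%, 20.8%, 16.8% and 9.57% for the 4 others than mature DCs. A call by a UMI of Mki67 or Top2a gave 3.78%, 16.3%, 13.4%, 9.95% and 5.72%. C1q-high macrophages stood at 14.7% with a floor of 1200 genes per cell, at 14.1% with no upper UMI limit, at 13.6% with a resolution of 1.5 and at 5.08% with no gene held out of the clustering. cDC2 stood at 17.6% with a resolution of 1.5 and at 22.3% with no gene held out, and at 11.6% to 16.9% when a lane was left out. cDC1 had the highest share and mature DCs the lowest under thinning, in the calls on 2 or 3 genes and in the call on Mki67 or Top2a, while with no gene held out cDC2 stood just above cDC1 at 22.2%.

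The call planned first marked 46.0%, 65%, 68.1%, 57.7% and 61.4%. It gave 16.5%, 42.9%, 37.8%, 31.3% and 27.2% after thinning to 1000 UMIs, 81.6%, 91.2%, 91.8%, 88.2% and 91.8% at 4000 UMIs, and 85.2%, 94.6%, 93.2%, 87.4% and 91.8% without thinning. With at least 2 genes it gave 74.2%, 86.3%, 89.1%, 80.5% and 83.5%, and with at least 5 genes 7.90%, 37.6%, 31.4%, 27.1% and 22.8%. C1q-high macrophages stood at 61.0% with a floor of 1200 genes and at 54.3% with no gene held out, and cDC2 at 71.0% with no gene held out.

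In the class contrasts, leaving out a pool leaves 2 pools per class. Without a pool in turn, 1668 to 4949 genes were called in C1q-high over alveolar macrophages (3705 with all pools, 2170 without the tolerance pool), 3156 to 5616 in cDC1 over alveolar macrophages (5077), 317 to 1901 in cDC1 over cDC2 (1347, and 570 without the tolerance pool), 1623 to 4113 in mature DCs over cDC1 (3692, and 2329 without the tolerance pool) and 1785 to 4413 in mature DCs over cDC2 (3902). Members higher came to 7 to 22 in C1q-high over alveolar macrophages (21) and 0 to 13 in cDC1 over cDC2 (4), and members lower to 1 to 2 in C1q-high (2) and 1 to 2 in cDC1 (3) over alveolar macrophages, 21 to 35 in mature DCs over cDC1 (35) and 22 to 34 over cDC2 (34). Without a lane in turn, 843 to 894 genes and 1 to 4 members were called in cDC1 over cDC2, and 2421 to 2563 genes in mature DCs over cDC1. Without the replicate block of pools, 835 genes were called and 1 member was higher in cDC1 over cDC2, and in the other contrasts the pairing by pool moved no count by over 1.5 times. In cDC1 over cDC2 members higher were 7 with no filter but 1 count and 0 with doublets kept. With dividing cells left out, fewer cells and 25 members tested, members higher were 12 in C1q-high and 16 in cDC1 over alveolar macrophages, 1 in cDC1 over cDC2 and 3 in mature DCs over cDC1, and members lower 13 and 14 in mature DCs over cDC1 and cDC2.

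Among the members tallied by fold change, signs turned chiefly in cDC1 over cDC2, where they had not passed. On the log2 scale, without the asthma pool Mki67 was −0.26, Mcm5 −0.0387 and Stmn1 −0.0948, and without the control pool Pcna was 0.11, Ccnd1 0.0505 and Ccnd2 0.37. Without lanes 1 and 2 in turn Mki67 was 0.299 and −0.0358, Pcna −0.253 and 0.234, and Mcm5 −0.115 and 0.331. With doublets kept Pcna was 0.0861 and Mcm5 −0.0168, and with only both classes in the fit Ccnd2 was 0.0144. With dividing cells left out Top2a was −0.69, Mcm5 −0.22 and Ccnd2 0.18, and Mki67 was 0.10 in mature DCs over cDC1 and 0.83 over cDC2.

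Between treatments, single lanes put 17 to 26 members past the fold in asthma over control (11 with both lanes, summed over the classes), 20 to 28 in tolerance over control (14) and 10 to 18 in tolerance over asthma (4), and with 5 counts added 4 members, not 7, were higher in tolerance over control cDC1. Each treatment was 1 pool of mice, so a difference between treatments and one between pools cannot be told apart, and the interval of a share covers counting error only. Control mature DCs were 33 cells and control C1q-high macrophages 81, where a few UMIs set a member's level and smaller differences were not detectable. Levels in bulk sums cannot tell fewer dividing cells from less RNA per cell. The rebuilt classes limit what a share means, since moving the clustering moved dividing cells between classes.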
